A study of Arabidopsis thaliana with 9 samples.

Results

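The genes described here are 10 *Arabidopsis thaliana* genes of carotenoid synthesis and of the xanthophyll cycle, chosen by their locus identifiers from the 28642 genes of the deposited table. They are *PSY* and *PDS* of the common pathway, the cyclases *LYC* and *LUT2*, the hydroxylases *BCH1*, *BCH2*, *LUT5*, and *LUT1*, and *ZEP* and *VDE*, the pair of enzymes that run the xanthophyll cycle. Their transcripts were read by RNA-seq in shoots of 3 genotypes with 3 libraries each, namely the wild type (Col-0), *vtc2-4*, a T-DNA line with its insertion in an exon of *VTC2*, and *vtc3-3*, a T-DNA line with its insertion in an exon of *VTC3*. *VTC2* encodes GDP-L-galactose phosphorylase, the enzyme that limits ascorbate synthesis, and *VTC3* encodes a putative protein kinase and phosphatase, and each genotype was represented by 1 line. All seedlings were 2 weeks old, had been raised on MS plates with 1% sucrose, and were kept in the dark for 2 d before 6 h of light at 100 µmol photons per square metre and second. Shoots were taken after the light period, so the values describe 1 moment after a dark to light shift and hold no dark or high-light sample.

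Carotenoids are made in plastids from geranylgeranyl diphosphate. Phytoene is formed first, is desaturated to lycopene, and is then closed into rings, which splits the pathway into a branch to lutein and a branch to β-carotene, zeaxanthin, and violaxanthin. In strong light violaxanthin de-epoxidase converts violaxanthin to zeaxanthin in the thylakoid lumen with ascorbate as the reductant, zeaxanthin favours the dissipation of excess light as heat, and zeaxanthin epoxidase returns it to violaxanthin in weak light. The comparison of the genotypes therefore concerns mutants that the authors report to be short of this reductant under other growth conditions. It asks whether they hold other transcript levels of the enzyme that uses ascorbate, or of the enzymes that supply its substrate. No ascorbate value is given for the seedlings sampled here.

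Among the 10 genes the 1 call with all 9 libraries was *BCH2*, a β-carotene hydroxylase, which was 0.516 times the wild-type level in *vtc2-4*, a comparison in which 0.598% of all genes tested were called. That call was lost under 5 of 19 alternative fits, and *BCH2* had the fewest reads of the 10 genes (108 to 207 per library). Its mean in *vtc3-3* lay between those of *vtc2-4* and the wild type, and the libraries of the 3 genotypes did not overlap. Groups lower without overlap were found for 8.14% of all genes in *vtc2-4* and 5.92% in *vtc3-3*. *VDE* was 1.17 times the wild-type mean in *vtc2-4* and 0.980 times in *vtc3-3*, and neither difference passed the test. *PSY*, *PDS*, *LYC*, *LUT2*, *LUT5*, and *LUT1* were called in no comparison, with or without the wild-type library that stood apart.

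The genes *BCH2* and *BCH1* are a pair of related copies, and their coding sequences are shown first because the reads that separate them carry the main result. In the RefSeq annotation of TAIR10.1 the coding sequences are 912 bases (*BCH2*) and 933 bases (*BCH1*) long. Of 901 aligned bases 741 were identical (82.2%), and the longest identical run was 33 bases. A stretch of 30 bases lying inside 1 exon of both genes is printed below from the coding strand, with the 5 bases that differ in capitals. It lies at chr4:13095813-13095842 (minus strand) in *BCH1* and at chr5:21336831-21336860 (minus strand) in *BCH2*.
BCH1: gtTacaTtcaaaccactcCaccgctcttTC
BCH2: gtAacaCtcaaaccactcAaccgctcttCT
No read on either gene was counted as mapping to more than 1 place in any library.

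Promoter windows ran from 250 bases before to 50 bases after the gene start in the RefSeq annotation of TAIR10.1. They were searched on both strands for CACGTG, the G-box bound by light-signalling factors such as HY5 and the PIFs. ATCTA, an element described in the *Arabidopsis PSY* promoter, was searched in the same way. CACGTG occurred in 1 of the 10 member windows, that of *BCH2*, and in 7.68% of 27443 promoters. ATCTA occurred in 3 of the 10 (*PDS*, *LUT2*, and *BCH1*) and in 54.0% of all promoters. The motifs share no letters at their ends on either strand and so cannot overlap, and a match of letters is a description only. The windows around the motif are printed for both hydroxylase genes, with the motif in capitals, because this pair of copies is compared in the results. The *BCH2* window lies at chr5:21337260-21337289 (minus strand), with its motif starting 151 bases before the RefSeq gene start (21337126). The *BCH1* window lies at chr4:13096270-13096299 (minus strand), with its motif starting 238 bases before the RefSeq gene start (13096049). The deposited positions given below put these starts at 21337002 for *BCH2* and 13095935 for *BCH1*.
BCH2: ggaagaagaggcCACGTGgagccattaaat
BCH1: tttatactaaaaATCTAgaaattaataaat

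The libraries held 4399733 to 7567492 reads on genes, and the 10 genes took 0.147% to 0.165% of them. The labels were checked on the targeted genes, and *VTC2* had 37 to 51 reads in *vtc2-4* against 2842 to 4500 in the wild type, and *VTC3* had 12 to 33 reads in *vtc3-3* against 75 to 110. The shoot markers *RBCS1A*, *RBCS2B*, *LHCA1*, and *LHCB2.1* were abundant in every library, the root hair genes *COBL9* and *EXPA7* had 0 reads in all 9, *TIP2;3* had 0 to 2 reads, and the root marker *PYK10*, a β-glucosidase, was present at 63.1 to 86.3 RPKM. Wild-type replicate 1 stood apart from the rest, with a mean correlation of 0.908 with the other libraries against 0.971 to 0.975 for each of the others. Its deviation from the median of the other libraries fell with exon length across genes (r = -0.56, against -0.03 to 0.16 elsewhere), genes being no independent replicates. All of the shoot markers, with 861 to 1200 bases of exon, were lower in it than in wild-type replicates 2 and 3. *RBCS1A* was at 3918 RPKM against 9147 and 9455, and *LHCB2.1* at 510 against 1085 and 1209. Why the markers were lower in this library was not tested. The biological coefficient of variation of the fit was 0.186 with this library and 0.0521 without it. Counts of calls and the changes they rest on are therefore given with all 9 libraries and without wild-type replicate 1, and the part that library plays in a result was not tested otherwise.

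Levels per sample are given as CPM, reads per 1000000 reads on genes after TMM scaling, and each comparison is a log2 fold change with its SE from edgeR's quasi-likelihood test, with p-values adjusted over all tested genes and a call at an adjusted p under 0.05. In the plot of CPM by library the wild-type libraries were more spread than those of either mutant in most panels. The coefficient of variation of the 10 genes had a median of 10.5% in wild-type libraries, 3.22% for *vtc2-4*, and 4.18% for *vtc3-3*. The RNA came from whole shoots, so that a change in the number of cells of a type and a change in RNA per cell cannot be told apart.

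**Figure D1:**
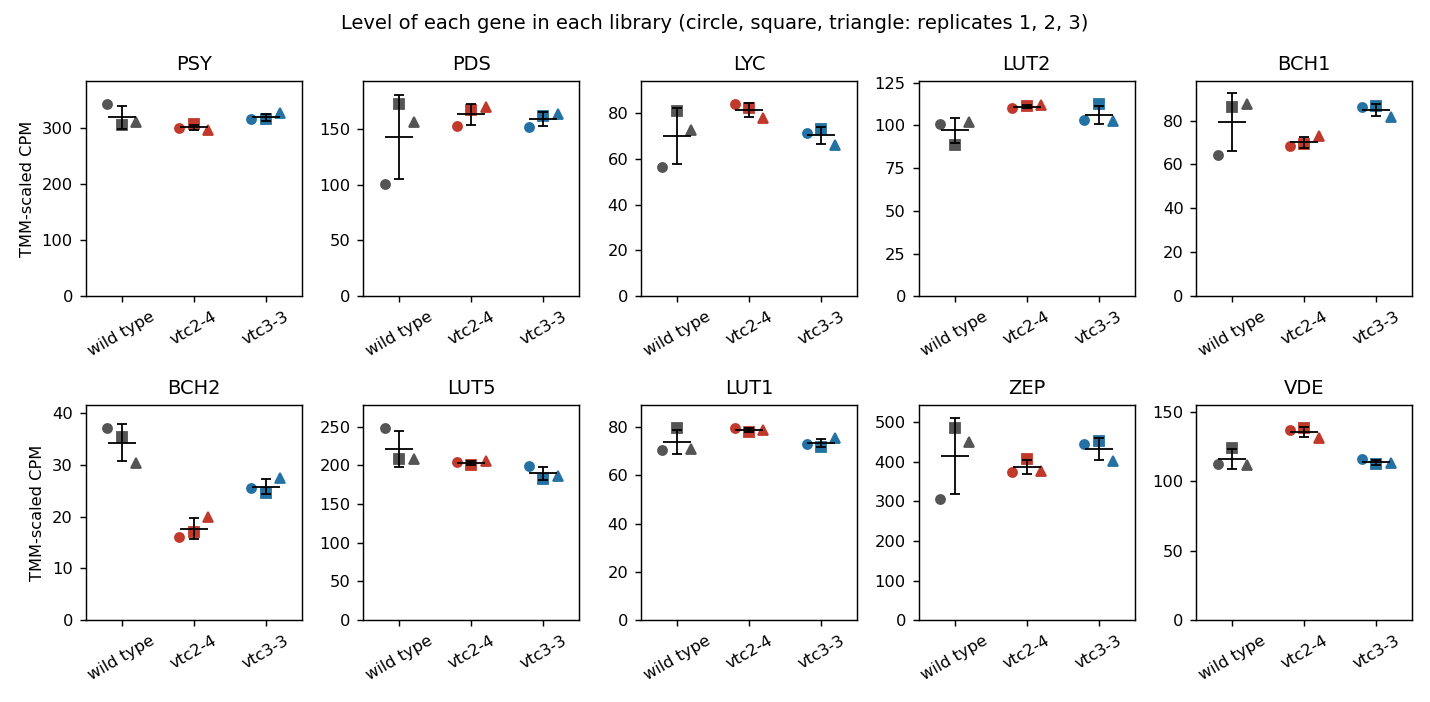
Levels of the 10 genes in each library as TMM-scaled CPM on linear axes from 0, with circles, squares, and triangles for replicates 1, 2, and 3 and black bars for the mean and SD of 3 libraries. The *vtc2-4* libraries of *BCH2* lie between 16.0 and 19.9 CPM, below those of *vtc3-3* (24.5 to 27.4) and of the wild type (30.4 to 37.2), and wild-type replicate 1 is the lowest library of *PDS*, *LYC*, *BCH1*, *LUT1*, and *ZEP*.

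Levels of different genes were compared as deposited RPKM, which divides by exon length. In the wild type *ZEP* led with a mean of 172 RPKM, followed by *PSY* (151), *LUT5* (106), *PDS* (64.0), *VDE* (60.0), *BCH1* (54.4), *LUT2* (49.9), *LYC* (35.6), *BCH2* (28.4), and *LUT1* (21.8). These means stood between the 77.9th and the 97.3rd percentile of all genes in the table, so none of the 10 was close to the detection limit. The libraries of *ZEP* and *PSY* overlapped, as did those of neighbours from *PDS* down to *LUT2* and those of *LYC* and *BCH2*. The steps from *PSY* to *LUT5*, from *LUT5* to *PDS*, from *LUT2* to *LYC*, and from *BCH2* to *LUT1* were free of overlap in the wild type. The ring-hydroxylating P450 enzymes of the lutein branch, *LUT5* and *LUT1*, stood at the third and the last place, and *ZEP* was above *VDE* in every library. The place of *LUT1* depends on its exon length of 3341 bases, from a gene model that overlaps a neighbour. Without division by exon length, the wild-type means were 73.8 CPM for *LUT1* and 34.3 CPM for *BCH2*.

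**Figure D2:**
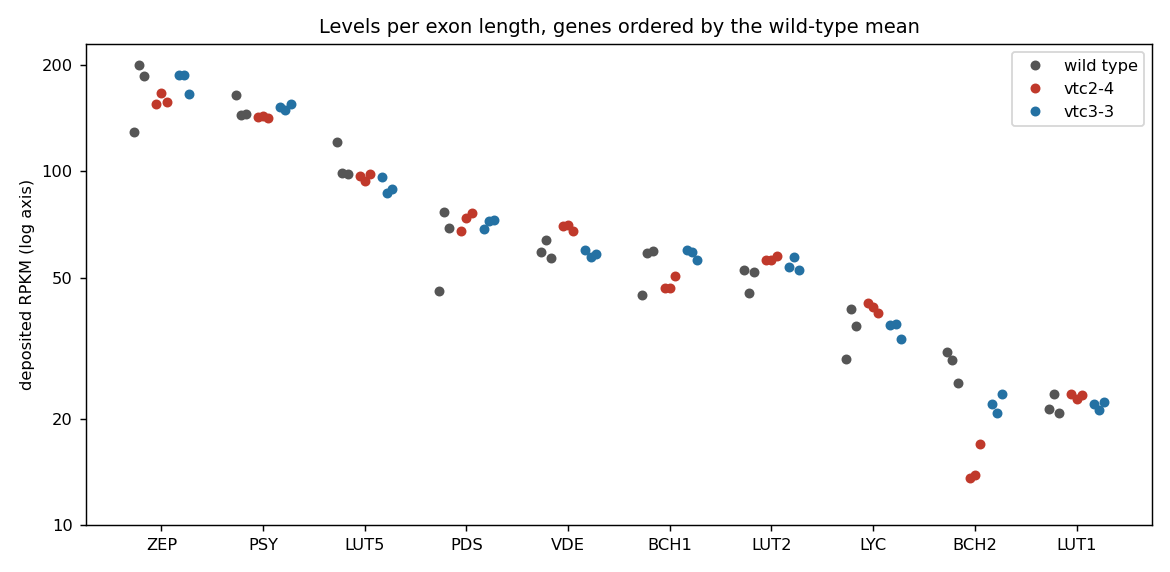
Deposited RPKM of the 10 genes on a log axis, ordered by the wild-type mean, with 1 point per library and colours for the genotypes. The order runs from *ZEP* (172 RPKM) to *LUT1* (21.8 RPKM), and the *vtc2-4* points of *BCH2* (13.5 to 16.9 RPKM) lie below every other point in the plot.

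In *vtc2-4* against the wild type 1 of the 10 genes was called, lower, while 0.598% of the 17388 genes tested were called in either direction and 0.173% were called lower. The same gene was the only member with an unadjusted p under 0.05, which 9.90% of all genes had. Fitted changes were above 0 for 5 members and below 0 for 5, with a median of 0.01 on the log2 scale against -0.01 over all genes. Without wild-type replicate 1 the members called were 3, all lower (*BCH2*, *BCH1*, and *ZEP*), where 6.05% of the genes tested were called and 3.01% were called lower. Sets of CPM did not overlap for 2 members higher (*LUT2* and *VDE*) and 2 lower (*BCH2* and *LUT5*), against 8.43% and 8.14% of all genes.

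For *vtc3-3*, set against the wild type, 0 of 10 members were called by edgeR's quasi-likelihood test, against 0.023% of all genes, and DESeq2 and the edgeR exact test also called 0. At an unadjusted p under 0.05 there was 1 member, *BCH2*, against 6.23% of all genes. The median change of the members was 0.0041 on the log2 scale, and the median size of their changes was 0.08 against 0.21 over all genes. Without wild-type replicate 1 the count was again 0, where 0.681% of all genes were called, and *BCH2* and *LUT5* had an unadjusted p under 0.05. Groups were free of overlap for 1 member higher (*LUT2*) and 2 members lower (*BCH2* and *LUT5*), against 6.17% and 5.92% of all genes.

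The mutants were also compared directly, and no wild-type library enters that contrast other than through the shared estimate of the spread. With all 9 libraries 0 of the 10 genes were called by edgeR's quasi-likelihood test, against 0.351% of all genes, DESeq2 and the exact test called 0, and 2 members (*BCH2* and *VDE*) had an unadjusted p under 0.05 against 5.10% of all genes. Without wild-type replicate 1 the test called 3 members, *BCH2* and *BCH1* higher and *VDE* lower in *vtc3-3*, where 6.76% of all genes were called, 3.15% higher and 3.6% lower. A fit of the 6 mutant libraries alone called 3, with 6.72% of all genes called, and these were *BCH2* (adjusted p = 0.00418), *VDE* (adjusted p = 0.00755), and *BCH1* (adjusted p = 0.0103). Groups were apart for 3 members higher (*BCH2*, *BCH1*, and *PSY*) and 4 lower (*LYC*, *LUT5*, *LUT1*, and *VDE*) in *vtc3-3* than in *vtc2-4*, against 11.3% and 12.2% of all genes. The comparisons share libraries, so their values are given side by side and are not counted as separate evidence.

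**Figure D3:**
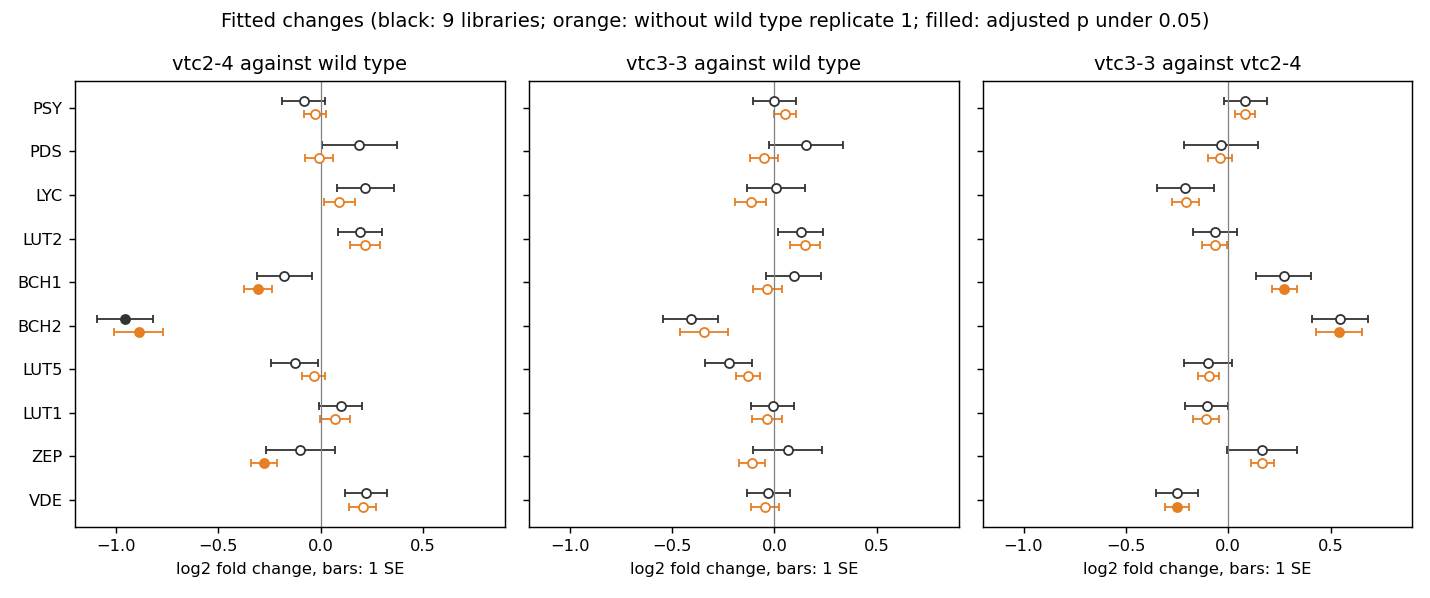
Log2 fold changes of the 10 genes in the 3 comparisons, with bars of 1 SE, black for the fit of 9 libraries and orange without wild-type replicate 1, and filled symbols for an adjusted p under 0.05. *BCH2* in *vtc2-4* (-0.96) is the only filled black symbol, and the orange bars are shorter than the black ones for each gene.

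*PSY* (AT5G17230, chromosome 5, 5659574 to 5662865, 11 exons), phytoene synthase, makes phytoene and is the entry step of the pathway. Its CPM was 342, 305, and 309 in wild-type libraries, 299.8, 306, and 297 for *vtc2-4*, and 315, 315, and 326 for *vtc3-3*. The *vtc3-3* libraries lay above all *vtc2-4* libraries, and the wild type overlapped both mutants. The fitted change was -0.08 (SE 0.11, adjusted p = 0.721, edgeR) in *vtc2-4*, with a 95% interval of -0.32 to 0.15, and the interval in *vtc3-3* was -0.24 to 0.24. The changes without wild-type replicate 1 were -0.03 (SE 0.05) and 0.05 (SE 0.05).

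*PDS* (AT4G14210, chromosome 4, 8190212 to 8195265, 17 exons), phytoene desaturase, carries out the desaturation that follows. Its CPM was 100.1, 172, and 156 in wild-type libraries, 152, 166, and 169.6 for *vtc2-4*, and 152, 162, and 163 for *vtc3-3*. Wild-type replicate 1 was far below the other 8 libraries, which overlapped across genotypes. The change in *vtc2-4* was 0.19 (SE 0.18) with all libraries and -0.01 (SE 0.07) without that library, and neither was called.

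*LYC* (AT3G10230, chromosome 3, 3164075 to 3166038), lycopene β-cyclase, closes the β-rings of both branches. Its CPM was 56.6, 80.7, and 72.5 in wild-type libraries, 83.9, 82.3, and 77.8 for *vtc2-4*, and 71.4, 73.2, and 66.2 for *vtc3-3*. The *vtc2-4* libraries lay above all *vtc3-3* libraries, and the wild type overlapped both mutants, with *vtc2-4* replicates 1 and 2 above every wild-type library. The direct difference was -0.21 (SE 0.14) in *vtc3-3*, and it missed the threshold without wild-type replicate 1 as well (-0.21, SE 0.07, adjusted p = 0.0723, edgeR). *LYC* overlaps AT3G10220 on the other strand over 157 bases, and whether reads were assigned by strand is not given in the sources used here, so reads in that stretch cannot be told apart.

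*LUT2* (AT5G57030, chromosome 5, 23077265 to 23080053, 11 exons), lycopene ε-cyclase, closes the ε-ring and so commits lycopene to lutein. Its CPM was 101, 88.4, and 102 in wild-type libraries, 110.0, 111, and 112 for *vtc2-4*, and 103, 112, and 103 for *vtc3-3*. Both mutants lay above every wild-type library. The change was 0.19 (SE 0.11, adjusted p = 0.54, edgeR) in *vtc2-4* and 0.13 (SE 0.11) in *vtc3-3*, and without wild-type replicate 1 the value in *vtc2-4* was 0.22 (SE 0.07, adjusted p = 0.0882), so it was not called either way. In *vtc3-3* the value without that library was 0.15 (SE 0.07, adjusted p = 0.585).

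*BCH1* (AT4G25700, chromosome 4, 13093934 to 13095935, 8 exons) and *BCH2* (AT5G52570, chromosome 5, 21334793 to 21337002, 7 exons) encode the non-haem di-iron β-carotene hydroxylases, which turn β-carotene into zeaxanthin. *BCH1* CPM was 64.3, 86.3, and 87.5 in wild-type libraries, 68.3, 69.1, and 73.1 for *vtc2-4*, and 86.1, 86.4, and 81.5 for *vtc3-3*. The *vtc2-4* libraries were below all *vtc3-3* libraries and below wild-type replicates 2 and 3, and wild-type replicate 1 was the lowest of all 9. Against the wild type the change in *vtc2-4* was -0.18 (SE 0.13, adjusted p = 0.59, edgeR) with all libraries and -0.31 (SE 0.07, adjusted p = 0.00839) without wild-type replicate 1, where the gene was called. The same library decided the direct comparison, in which *BCH1* was higher in *vtc3-3* by 0.27 (SE 0.13) with all libraries, not called, and by 0.27 (SE 0.06, adjusted p = 0.00823) without it.

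*BCH2* had 207, 178, and 176 reads in wild-type libraries, 108, 122, and 138 for *vtc2-4*, and 196, 126, and 120 for *vtc3-3*, the fewest of the 10 genes. Scaled for depth this was 37.2, 35.4, and 30.4 CPM in wild-type libraries, 16.0, 17.1, and 19.9 for *vtc2-4*, and 25.6, 24.5, and 27.4 for *vtc3-3*. No 2 genotypes overlapped, and the order was the wild type, *vtc3-3*, and *vtc2-4*, with means of 34.3 ± 3.54, 25.8 ± 1.46, and 17.7 ± 1.99 CPM (SD, n = 3). In *vtc2-4* the log2 fold change was -0.96 (SE 0.14, 95% interval -1.26 to -0.65, adjusted p = 0.0149 by edgeR's quasi-likelihood test), and without wild-type replicate 1 it was -0.89 (SE 0.12, adjusted p = 5.73e-05). The call was lost in a fit of only the wild type and *vtc2-4* (adjusted p = 0.133) and on leaving out wild-type replicate 2 (adjusted p = 0.057), *vtc2-4* replicate 1 (0.118), or *vtc2-4* replicate 2 (0.118), with changes of -0.96, -0.93, -0.89, and -0.93.

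In *vtc3-3* the change of *BCH2* against the wild type was -0.41 (SE 0.14, 95% interval -0.71 to -0.11, adjusted p = 0.625, edgeR), which was not called, and -0.35 (SE 0.12, adjusted p = 0.287) without wild-type replicate 1. The direct difference between the mutants was 0.55 (SE 0.14, adjusted p = 0.2995) with all libraries, not called, and 0.54 (SE 0.11, adjusted p = 0.00411) without wild-type replicate 1, when it was. Reads that span exon junctions, which an unspliced transcript does not give, numbered 121, 90, and 97 in wild-type libraries, 60, 64, and 74 for *vtc2-4*, and 112, 61, and 65 for *vtc3-3*. Scaled as above these were 18.8 ± 2.63, 9.52 ± 1.00, and 13.8 ± 1.66 CPM (SD, n = 3), a log2 ratio to the wild type of -0.98 in *vtc2-4* and -0.45 in *vtc3-3*, in the same order as all reads. *BCH2* overlaps AT5G52560 on the other strand by 19 bases at its end, 0.86% of its span, and that neighbour was at 0.07 (SE 0.14, adjusted p = 0.811) in *vtc2-4*. Intron reads were 1.67% to 7.25% of *BCH2* reads.

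*LUT5* (AT1G31800, chromosome 1, 11396402 to 11399714, 15 exons) encodes CYP97A3, a P450 that hydroxylates the β-ring of α-carotene. Its CPM was 249, 208, and 208 in wild-type libraries, 204, 200.0, and 205 for *vtc2-4*, and 199, 183, and 187 for *vtc3-3*. Every mutant library lay below every wild-type library, and every *vtc3-3* library lay below every *vtc2-4* library. These gaps were small beside the spread of the wild type, and the change in *vtc3-3* was -0.22 (SE 0.12, adjusted p = 0.625, edgeR) with all libraries and -0.13 (SE 0.06, adjusted p = 0.51) without wild-type replicate 1. *LUT5* shares 108 bases with AT1G31810 on the other strand.

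*LUT1* (AT3G53130, chromosome 3, 19692771 to 19697542, 12 exons) encodes CYP97C1, the P450 that hydroxylates the ε-ring and completes lutein. Its CPM was 70.6, 79.7, and 71.1 in wild-type libraries, 79.7, 78.1, and 79.0 for *vtc2-4*, and 73.0, 71.8, and 75.4 for *vtc3-3*. The mutants did not overlap each other, and both overlapped the wild type. The change was 0.10 (SE 0.10) in *vtc2-4* and -0.01 (SE 0.10) in *vtc3-3*, with 95% intervals of -0.13 to 0.33 and -0.24 to 0.22, and without wild-type replicate 1 it was 0.07 (SE 0.07) and -0.04 (SE 0.07). Its gene model overlaps AT3G53140 on the same strand over 1900 bases, 39.8% of its span, and AT3G53140 held 0 reads in all libraries. Reads from that locus, if any, cannot be told apart from those of *LUT1*. In addition, 3.49% to 6.23% of *LUT1* reads mapped to more than 1 place. The level of *LUT1*, and its RPKM over 3341 bases of exon, are uncertain for both reasons.

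*ZEP* (AT5G67030, chromosome 5, 26753510 to 26757236, 19 exons), zeaxanthin epoxidase, also supplies the epoxidized precursors of abscisic acid. Its CPM was 306, 486, and 451 in wild-type libraries, 375, 407, and 377 for *vtc2-4*, and 446, 453, and 402 for *vtc3-3*. Wild-type replicate 1 was the lowest of the 9, and without it the wild type lay above all *vtc2-4* libraries and overlapped *vtc3-3*. In *vtc2-4* the change was -0.10 (SE 0.17, adjusted p = 0.786, edgeR) with all libraries and -0.28 (SE 0.06, adjusted p = 0.00944) without that library, so the call rests on leaving it out. In *vtc3-3* the change was 0.07 (SE 0.17) and -0.11 (SE 0.06), not called in either.

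*VDE* (AT1G08550, chromosome 1, 2706924 to 2709531, 7 exons) encodes violaxanthin de-epoxidase, the enzyme that uses ascorbate. Its CPM was 113, 124, and 111 in wild-type libraries, 137, 138, and 131 for *vtc2-4*, and 116, 112, and 113 for *vtc3-3*. Each *vtc2-4* library lay above every library of the wild type and of *vtc3-3*, and the wild type and *vtc3-3* overlapped. The change in *vtc2-4* was 0.22 (SE 0.10, 95% interval -0.01 to 0.45, adjusted p = 0.506, edgeR) with all libraries and 0.20 (SE 0.06, adjusted p = 0.0716) without wild-type replicate 1, not called in either. In *vtc3-3* it was -0.03 (SE 0.10, 95% interval -0.26 to 0.20) and -0.05 (SE 0.07). Between the mutants the change of *VDE* in *vtc3-3* was -0.25 (SE 0.10, adjusted p = 0.856) with all libraries and -0.25 (SE 0.06, adjusted p = 0.0092) without wild-type replicate 1, the second of which was a call. Of the shoot markers, *LHCB2.1* was also lower in *vtc3-3* than in *vtc2-4* in the fit of the 6 mutant libraries (-0.22, SE 0.06, adjusted p = 0.0244, edgeR). In that fit *LHCA1* was at -0.14 (SE 0.06, adjusted p = 0.174), *RBCS1A* at 0.06 (SE 0.06), and *RBCS2B* at 0.05 (SE 0.06). Against the wild type the 4 markers ran from 0.21 to 0.42 in *vtc2-4* with all libraries, and 0 were called. Without wild-type replicate 1 they ran from -0.06 for *RBCS2B* to 0.23 for *LHCA1*, and 1 was called, higher. The part of the markers in the results for *VDE* was not tested.

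Ratios within a library do not depend on how libraries are scaled, and 3 were compared as ratios of RPKM. The exact two-sided permutation tests used have a smallest possible p of 0.1 for 3 against 3. Such ratios can still carry the exon-length pattern of wild-type replicate 1. Genes with an exon length near that of *BCH2* (1145 bases) had a median log2 deviation of 0.38 there from wild-type replicates 2 and 3. For genes near the length of *BCH1* (1445 bases) it was 0.09, and its part in the ratio was not tested. The ratio of *BCH2* to *BCH1* was 0.686, 0.499, and 0.423 in wild-type libraries, 0.289, 0.296, and 0.334 for *vtc2-4*, and 0.368, 0.351, and 0.417 for *vtc3-3*. *BCH2* was the lower copy in every library, and no 2 genotypes overlapped. Means were 0.536 ± 0.136, 0.306 ± 0.0243, and 0.379 ± 0.0343 (SD, n = 3), and each of the 3 differences had an exact permutation p of 0.1 (0.18 adjusted over 9 tests), so the design cannot pass the threshold here. The log2 difference from the wild type without replicate 1 of that genotype was -0.59 in place of -0.78 in *vtc2-4* and -0.28 in place of -0.48 in *vtc3-3*.

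The ratio of *ZEP* to *VDE*, the opposed enzymes of the cycle, was 2.18, 3.14, and 3.27 in wild-type libraries, 2.22, 2.36, and 2.32 for *vtc2-4*, and 3.14, 3.27, and 2.84 for *vtc3-3*. The mutants were apart (2.30 ± 0.0710 against 3.08 ± 0.219, SD, n = 3, exact permutation p = 0.1, adjusted 0.18), and the wild type spanned the range of *vtc2-4* and overlapped *vtc3-3*, with exact p-values of 0.4 and 0.8. Leaving out wild-type replicate 1, the log2 difference from the wild type moved from -0.29 to -0.48 in *vtc2-4* and from 0.13 to -0.06 in *vtc3-3*. The ratio of *LUT2* to *LYC*, the cyclases of the branch point, was 1.79, 1.11, and 1.42 in wild-type libraries, 1.32, 1.37, and 1.45 for *vtc2-4*, and 1.46, 1.55, and 1.57 for *vtc3-3*. The wild type spanned both mutants, and the mutants were apart by 0.15 on the log2 scale (exact permutation p = 0.1, adjusted 0.18). The difference from the wild type without that library turned from -0.04 to 0.14 in *vtc2-4* and moved from 0.11 to 0.28 in *vtc3-3*.

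**Figure D4:**
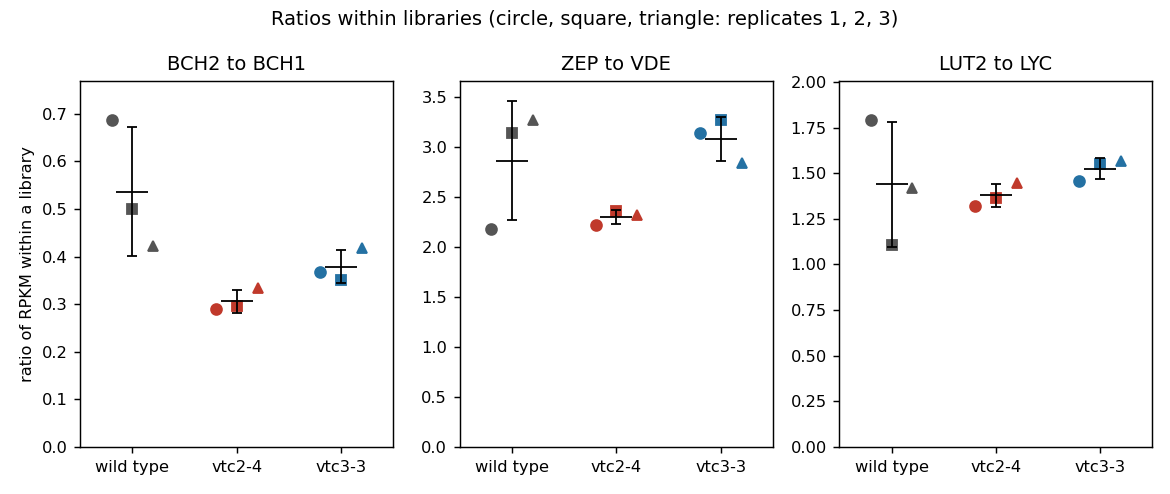
Ratios of RPKM of 3 gene pairs within each library on linear axes from 0, with circles, squares, and triangles for replicates 1, 2, and 3 and black bars for the mean and SD of 3 libraries. For *BCH2* to *BCH1* the genotypes do not overlap, with means of 0.536 in wild-type libraries, 0.306 for *vtc2-4*, and 0.379 for *vtc3-3*.

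The other genes of the pathway were taken from 4 lists, namely 4 further carotenoid enzymes, 10 genes of the plastid isoprenoid supply, 9 carotenoid cleavage genes, and 6 genes of light quenching and of *PSY* control. With all 9 libraries 0 of them were called in any comparison by edgeR's quasi-likelihood test, and those with an unadjusted p under 0.05 were 1 (*CCD4*) in *vtc2-4*, 2 (*MDS* and *NCED3*) in *vtc3-3*, and 2 (*CCD4* and *NCED3*) between the mutants, where 9.90%, 6.23%, and 5.10% of all genes had such a p. DESeq2 also called 0, and the edgeR exact test called 1 in *vtc2-4*, 0 in *vtc3-3*, and 1 between the mutants. All genes of the carotenoid enzyme, supply, and quenching lists passed the filter on low counts, and 3 of the 9 cleavage genes did. *CCD7*, *NCED2*, *NCED5*, *NCED6*, and *NCED9* had 0 to 4 reads per library, and *CCD8* had 0 to 21, so differences in them were not detectable at this depth.

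Of the carotenoid enzymes, changes in *vtc2-4* ran from -0.31 for *ABA4*, which is needed for neoxanthin, to 0.13 for *Z-ISO*, a carotene isomerase, and in *vtc3-3* from -0.30 for *ABA4* to 0.11 for *ZDS*, a further desaturase. The list medians were 0.02 and 0.07 on the log2 scale against -0.01 and -0.0029 over all genes. Without wild-type replicate 1 *ABA4* was at 0.07 and 0.09, *Z-ISO* was at -0.03 in *vtc2-4*, and the list medians were -0.04 and -0.04. For the supply list the extremes were *MCT* (-0.39 and -0.53) and *HDS* (0.22 and 0.24), both enzymes of the methylerythritol phosphate pathway, and the medians were -0.09 and -0.06. These extremes rested on wild-type replicate 1, which had 55.4 CPM for *MCT* against 22.7 and 21.4 in replicates 2 and 3, and 210.1 CPM for *HDS* against 565 and 539.7. Without it *MCT* was at 0.21 and 0.06, *HDS* at -0.11 and -0.10, and the list medians were -0.03 and -0.08. The quenching list ran from -0.16 for *OR* to 0.16 for *OR-like* in *vtc2-4* and from -0.14 for *OR* to 0.21 for *PSBS* in *vtc3-3*. *OR* and *OR-like* encode chaperones that stabilize phytoene synthase, and *PSBS* encodes the sensor of lumen pH in heat dissipation, and the medians of this list were 0.07 and 0.05. When that library was left out, *OR-like* in *vtc2-4* was at 0.0018, the highest gene of the list was *LCNP*, a plastid lipocalin, at 0.19 and 0.04, and the medians were -0.03 and -0.01. The cleavage list ran from -0.21 for *NCED3* to 0.78 for *CCD4* in *vtc2-4* and from -0.00087 for *CCD1*, a cytosolic dioxygenase, to 0.81 for *NCED3* in *vtc3-3*, and without wild-type replicate 1 from -0.42 to 0.55 and from -0.05 to 0.60 for the same genes. Between the mutants the extremes with all libraries were *Z-ISO* (-0.06) and *ZDS* (0.12) of the carotenoid enzymes, *DXS1* (-0.20) and *IPP1* (0.04) of the supply list, and *LCNP* (-0.14) and *VDR* (0.08) of the quenching list.

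Without wild-type replicate 1, 3 genes of these lists were called in at least 1 comparison, namely 1 in *vtc2-4*, where 6.05% of all genes were called, 0 in *vtc3-3* (0.681%), and 3 between the mutants (6.76%). *CCD4*, a plastoglobule dioxygenase that degrades carotenoids, was at 76.8, 147, and 128 CPM in wild-type libraries, 189, 232, and 183 for *vtc2-4*, and 132, 139.7, and 134 for *vtc3-3*. Its *vtc2-4* libraries lay above all others. The change in *vtc2-4* was 0.55 (SE 0.09, adjusted p = 0.000352, edgeR) without wild-type replicate 1 and 0.78 (SE 0.21, adjusted p = 0.227), not called, with it. Against *vtc2-4* the change of *CCD4* in *vtc3-3* was -0.58 (SE 0.08, adjusted p = 6.01e-05) without that library, against -0.58 (SE 0.21, adjusted p = 0.731) with it.

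*NCED3*, which cleaves epoxycarotenoids in the synthesis of abscisic acid, had 16, 18, and 33 reads in wild-type libraries, 25, 24, and 24 for *vtc2-4*, and 47, 41, and 33 for *vtc3-3*. In CPM it was 2.88, 3.58, and 5.69, then 3.71, 3.37, and 3.46, then 6.14, 7.98, and 7.54, and *vtc3-3* lay above all other libraries. It was higher in *vtc3-3* than in *vtc2-4* by 1.01 (SE 0.22, adjusted p = 0.00704, edgeR) without wild-type replicate 1 and by 1.02 (SE 0.26, adjusted p = 0.293), not called, with it. *DXS1*, the first enzyme of the methylerythritol phosphate pathway, was at 335, 426, and 416 CPM in wild-type libraries, 461, 454, and 447 for *vtc2-4*, and 391, 400.0, and 397 for *vtc3-3*. The mutants did not overlap, and the direct difference was -0.20 (SE 0.05, adjusted p = 0.0107) without wild-type replicate 1 and -0.20 (SE 0.12), not called, with it.

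**Figure D5:**
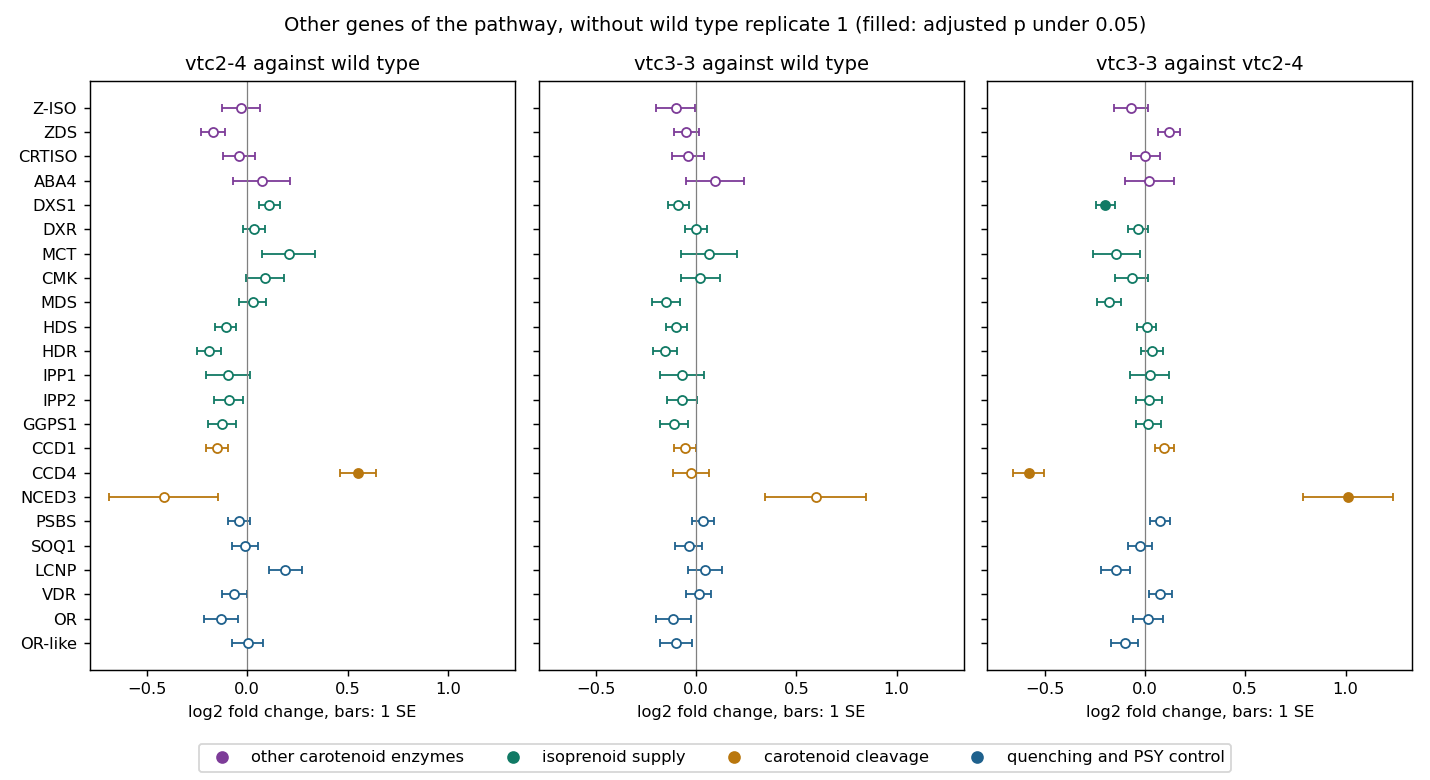
Log2 fold changes of the tested genes of the 4 further lists in the 3 comparisons without wild-type replicate 1, with bars of 1 SE and filled symbols for an adjusted p under 0.05. Filled symbols are *CCD4* in *vtc2-4* against the wild type (0.55) and *DXS1* (-0.20), *CCD4* (-0.58), and *NCED3* (1.01) in *vtc3-3* against *vtc2-4*.

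For *BCH2* and *VDE* the genes with the most similar pattern were sought among 13253 genes with a mean of at least 50 reads, by Pearson's r of log2 CPM over the 8 libraries without wild-type replicate 1. Nearest to *BCH2* were *TRM25* (r = 0.976), *RL4* (0.973), and AT2G45290 (0.972), and nearest to *VDE* were AT3G59310 (0.988), *CRY1*, a blue-light receptor (0.98), and AT3G51140 (0.978). These were picked as the highest of many values over libraries of 3 genotypes, and they are a description only. In wild-type replicate 1, which the search left out, *RL4* had 206 reads against 64 and 76 in replicates 2 and 3. *TRM25* had 65 there against 96 and 110, and AT2G45290 had 105 against 176 and 183. Of the genes nearest to *VDE*, AT3G59310 had 106 against 69 and 61, and AT3G51140 had 228 against 358 and 375. Only *CRY1* was close to the other wild-type libraries, with 889 against 877 and 909.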

How the data were processed

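RNA-seq of 9 shoot libraries (TruSeq, MiSeq) was mapped and counted by the authors in CLC Genomics Workbench, and the mapping settings, strand use, and genome build are not given in the sources used here. The deposited table holds raw read counts per gene and RPKM values that the authors computed from exon reads per kilobase of exon and per 1000000 reads on genes. Positions in the table overlapped those of the same locus in TAIR10.1 for all 27997 of 28642 identifiers that matched, 50.2% of them with the same start or end, so the annotation versions differ. The 15 columns of the authors' own comparisons (fold changes and p-values) and a further 103 columns per library were not used.

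Exon and intron reads of each gene were summed and fitted with genotype as the only factor by the quasi-likelihood test of edgeR 4.0.16 (R 4.3.3) after TMM scaling and filterByExpr, with Benjamini-Hochberg adjustment over the 17388 genes tested (17631 without wild-type replicate 1). CPM values are TMM-scaled. The SE of a fold change was taken from its F statistic. Depth was 5070225 to 5853283 reads in the wild type, 6765579 to 7249548 in *vtc2-4*, and 4399733 to 7567492 in *vtc3-3*. The labels number the libraries but do not tie equal numbers together, and deviations of same-numbered libraries correlated at -0.03 to 0.09, so no pairing was used. The samples were described as biological triplicates. The edgeR p-values weigh a difference against the spread between libraries, which was estimated jointly over the genotypes of a fit with information shared across genes. Alternatives were DESeq2 1.42.0, the edgeR exact test, other scalings, filters, and read classes, a per-library lowess correction (span 0.3) for exon length, a replicate block, fits of 2 genotypes, and each library left out. The tests were also run on simulated counts with 1 fixed spread for all genes and no library that stood apart. That run does not show how the tests behave with wild-type replicate 1.

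Named genes were the 10 members, genes of 4 pathway lists that passed the threshold with or without wild-type replicate 1 or were the extremes of their list, *VTC2* and *VTC3*, cell type markers, and the 3 genes most like *BCH2* and *VDE*. The members and lists were chosen with earlier results of these data known. Sequences were read from the RefSeq genome and annotation of TAIR10.1.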

Additional observations from a re-analysis of the deposited data

Results flagged for a closer look

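The effects of the 2 mutations differed, by the direct test between the mutants without wild-type replicate 1 (edgeR, adjusted p under 0.05), for 3 of the 10 members and 3 genes of the pathway lists, where 6.76% of all genes were called. The targeted genes and the shoot marker *LHCB2.1* (-0.22) were called as well. On the log2 scale, *vtc3-3* against *vtc2-4*, the differences were 0.54 for *BCH2*, 0.27 for *BCH1*, -0.25 for *VDE*, -0.20 for *DXS1*, -0.58 for *CCD4*, and 1.01 for *NCED3*. In each of the 6 the mutant libraries did not overlap (3 against 3), as was so for 11.3% of all genes higher and 12.2% lower in *vtc3-3*. The 6 were picked by a test on these same libraries, so the lack of overlap is no further support. With all 9 libraries the differences were of about the same size (0.55, 0.27, -0.25, -0.20, -0.58, and 1.02) and none was called, while the fit of the 6 mutant libraries alone called all of them. Each genotype was 1 line, so effects of the line and of the gene cannot be told apart.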

How the results depend on the processing

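In *vtc2-4* against the wild type the count of members called was 1, and it was 0 in a fit of only the 2 genotypes, 0 with a replicate block, and 0 to 3 when 1 library was left out. Between the mutants the count was 0, and it was 3 in a fit of only the 2 genotypes and 0 to 3 when 1 library was left out. In *vtc3-3* against the wild type it was 0 under all 19 alternatives. With the replicate block *BCH2* in *vtc2-4* was at -0.96 (adjusted p = 0.0568, edgeR), and the numbers do not pair the libraries. Uncalled values that changed sign were *LUT1* in *vtc2-4* (-0.0687) and *LYC* (-0.0578) and *ZEP* (-0.0324) in *vtc3-3* with the length trend removed, and in *vtc3-3* *PSY* (0.0091 with no filter, 0.0008 with the replicate block, and 0.0015 with exon reads) and *LUT1* (0.0004 with no filter). With 1 library left out the ranges were -0.0088 to 0.346 for *PDS* and -0.276 to 0.0332 for *ZEP* in *vtc2-4*, and in *vtc3-3* -0.0292 to 0.0526 for *PSY*, -0.0496 to 0.309 for *PDS*, -0.117 to 0.125 for *LYC*, -0.0343 to 0.17 for *BCH1*, -0.11 to 0.198 for *ZEP*, -0.0371 to 0.0523 for *LUT1*, and -0.0596 to 0.0239 for *VDE*. *BCH2* kept its direction in every alternative and comparison. Under the alternatives other than leaving out 1 library, its change ranged from -0.97 to -0.84 in *vtc2-4* and from -0.41 to -0.29 in *vtc3-3*. Over the whole table the calls in *vtc2-4* were 104, and 284 by DESeq2, 300 by the exact test, 211 with the length trend removed, 34 in a fit of the 2 genotypes, and 32 to 1066 with 1 library left out. In *vtc3-3* they were 4, and 20, 22, 5, 0, and 1 to 120 in that order, and between the mutants 61, and 132, 156, 112, 1167, and 8 to 1191. Calls in the 4 further lists were 0, and 0 to 1 in *vtc2-4* and 0 to 3 between the mutants with 1 library left out. The largest counts are those without wild-type replicate 1, and the cause was not tested. Of the 10 members *BCH2* had the fewest reads, 108 to 207 reads per library. The ratios of RPKM with 1 library left out ranged, on the log2 scale against the wild type, from -0.48 to -0.19 (*vtc2-4*) and -0.06 to 0.23 (*vtc3-3*) for *ZEP* to *VDE*, and from -0.21 to 0.14 and -0.07 to 0.28 for *LUT2* to *LYC*.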
